A study of Mus musculus with 2 samples.

Results

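Serpinb2, Serpine2, Timp3 and Plaur are 4 of the 14366 genes measured in cultured mouse hematopoietic stem cells (HSC). Serpinb2, Serpine2 and Timp3 encode protease inhibitors, and Plaur encodes the cell surface receptor of the protease urokinase. They were chosen by name because, in these same libraries, the 3 inhibitors were lower and the receptor was higher after iron chelation. The directions and sizes of those differences over all cells are therefore a description of how the genes were picked. What the choice did not fix is which cells held each transcript, whether the difference lay in the number of cells or in the amount per cell, and how the genes sat together in single cells.

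Urokinase cuts plasminogen into plasmin, a protease that dissolves fibrin and matrix. The urokinase receptor is held to the membrane by a lipid anchor, gathers urokinase at the cell surface, and also binds vitronectin and integrins. Serpins are suicide inhibitors: the protease cuts a loop of the serpin and stays trapped on it. Metalloproteinase inhibitors of the Timp family block the enzymes that cut matrix proteins and shed proteins from the cell surface. In the platelet lineage, megakaryocytes and platelets carry several such inhibitors in their granules.

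The cells were HSC sorted as Lin−Sca-1+c-Kit+CD150+CD48− from the pooled lineage-depleted bone marrow of 8 wildtype C57/B6 mice aged 6 to 8 weeks. Both groups were kept for 48 h in Myelocult M5300 with cytokines, among them 100 ng/ml SCF. One group received 10 µM deferoxamine (DFO), an iron chelator, and the other received sterile water as vehicle. From each group, 20000 live cells went into 10x Genomics 3′ v3 library preparation, which tags each RNA molecule near its 3′ end.

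There was 1 library per group, so no difference between the groups has a replicate check and no test was run. Intervals are 95% and cover counting error only. They do not cover differences between cells, cultures or library preparations. The vehicle library held 8708 cells with 260938938 molecules, and the DFO library held 9852 cells with 284326017 molecules. The median cell had 27805.5 molecules in vehicle and 27114 in DFO. Both libraries held 24 of the cell barcodes. After culture, Kit transcripts were found in 57.0% and 62.5% of vehicle and DFO cells and Ly6a (Sca-1) in 47.7% and 58.3%. Slamf1 (CD150) was found in 26.5% and 22.0%, and Cd48, a marker that the sort had gated out, in 64.4% of cells in both libraries. Of the listed markers of other cells, 0 of 5 for eosinophils and 2 of 8 for lymphoid cells were measured, and the latter summed to 0.245 and 0.113 molecules after scaling to a library total of 1000000 (CPM). Stromal or endothelial markers summed to 48.2 and 45.1 CPM, of which 42.4 and 40.5 came from a single gene, Pecam1, which blood cells also carry.

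Serpinb2, known as plasminogen activator inhibitor type 2, inhibits urokinase and tissue-type plasminogen activator. Its level over all cells was 7.17 CPM (6.85 to 7.50) in vehicle and 3.06 CPM (2.86 to 3.27) in DFO. The DFO level was less than the vehicle level by more than the counting error, with a log2 difference of -1.01 (-1.12 to -0.89). Differences are log2 of the ratio of CPM values after 1 CPM was added to each, DFO over vehicle. Serpinb2 did not reach 10 CPM in either library. Among the 8886 genes with a mean of at least 5 CPM, 7 had a more negative difference.

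Timp3 encodes a matrix-bound inhibitor of metalloproteinases and of cell surface sheddases. It measured 17.6 CPM (17.1 to 18.2) in vehicle and 9.13 CPM (8.78 to 9.49) in DFO, a log2 difference of -0.88 (-0.95 to -0.81). Serpine2, also called protease nexin, inhibits thrombin as well as urokinase and plasmin. It measured 11.5 CPM (11.1 to 11.9) in vehicle and 8.37 CPM (8.03 to 8.71) in DFO, the smallest difference of the 3 inhibitors at -0.41 (-0.49 to -0.34). Without likely doublets, meaning cells with molecules of both sexes and the top 8% of cells by molecules, the Serpine2 difference was -0.051. That filter takes out cells with many molecules whether or not they are doublets. At equal shares of marker ranges, described further on, the Serpine2 difference was 0.46. Plaur measured 12.3 CPM (11.9 to 12.8) in vehicle and 17.0 CPM (16.5 to 17.4) in DFO, a log2 difference of 0.43 (0.37 to 0.49). For scale, Pf4, which encodes the platelet chemokine used here as the reference megakaryocyte gene, went from 1447 CPM in vehicle to 592.2 CPM in DFO, a log2 difference of -1.29.

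Of the 7476 genes that reached 10 CPM in at least 1 library, 2.31% were lower in DFO by 0.25 or more on the log2 scale and 1.24% were higher by as much. At 0.5 or more, 0.575% were lower and 0.0134%, a single gene, was higher. Timp3, with 8 of these genes below it, and Serpine2, with 64 below it, were among the lower ones, and Plaur had 5 genes above it. With the minimum set at a mean of 5 CPM, which lets Serpinb2 in, 2.58% were lower and 1.4% higher by 0.25 or more. Because the genes were picked on this comparison, nothing is read from their place in it.

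**Figure D1:**
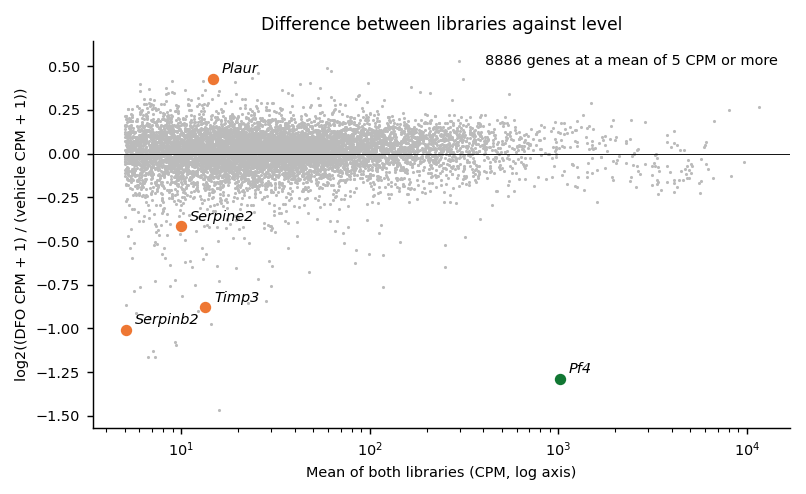
Each grey point is 1 of the 8886 genes with a mean of at least 5 CPM, placed by its mean level in both libraries (CPM, log axis) and its log2 difference between DFO and vehicle. The orange points are the chosen genes and the green point is Pf4: Serpinb2, Timp3 and Serpine2 lie below 0, and Plaur lies near the upper edge at 0.43.

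In GRCm38, the build that the submitters' processing notes name as mm10, Serpine2 spans chr1:79794197-79861180 on the minus strand and Serpinb2 spans chr1:107511423-107535478 on the plus strand, both as annotated by GENCODE M21. Plaur spans chr7:24462484-24475968 and Timp3 chr10:86300372-86349506, both on the plus strand. The last exons of Serpinb2 lie in the span of Serpinb10, which runs on the same strand and shares exonic sequence with it in the annotation. Serpinb10 was not among the symbols measured, so reads from shared exons could count towards Serpinb2. Timp3 lies inside Syn3, a synapsin gene on the opposite strand, and exons of the 2 genes overlap. The sources used here do not say whether the counting used strand. Syn3 was counted at 0.812 CPM (vehicle) and 0.819 CPM (DFO), far under Timp3 and with a log2 difference of 0.01.

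The promoters were compared because the genes differ in direction between the libraries. In the RefSeq promoter table of GRCm38.p6, which covers 250 bases before to 50 bases after the start of 27025 genes, all 4 genes had an entry. Serpinb2 had 2 entries, of which only the first was searched, and the other genes had 1. Serpinb2 and Plaur, the genes with the most negative and the only positive difference, each held 1 copy of the motif TGANTCA, the AP-1 type element, which was found in 7.93% of all promoters. The Serpine2 and Timp3 windows held none. The 250 bases before each start are shown 5′ to 3′ with that motif in capitals, for Serpinb2 from chr1:107511173-107511422 (plus strand), where it lies 94 to 88 bases before the start, and for Plaur from chr7:24462233-24462482 (plus strand), where it lies 69 to 63 bases before the start.
Serpinb2: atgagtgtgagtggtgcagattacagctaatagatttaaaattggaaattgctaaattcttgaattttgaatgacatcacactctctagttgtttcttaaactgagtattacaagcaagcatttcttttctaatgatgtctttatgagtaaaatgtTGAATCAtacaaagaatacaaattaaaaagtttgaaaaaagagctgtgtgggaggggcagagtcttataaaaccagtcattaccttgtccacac
Plaur: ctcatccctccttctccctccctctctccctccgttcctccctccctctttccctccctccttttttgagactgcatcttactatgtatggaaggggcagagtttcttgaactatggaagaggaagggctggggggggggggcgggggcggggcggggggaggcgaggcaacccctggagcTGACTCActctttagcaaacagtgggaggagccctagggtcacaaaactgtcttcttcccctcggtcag
The pair also differ in base composition, with 32.4% G and C in the Serpinb2 sequence and 59.6% in that of Plaur. Over all promoters the median for the same bases was 52%. Serpine2 stood at 78.8% and Timp3 at 65.6%.

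The search covered 6 more motifs, all on both strands and with overlaps counted. The motif GATA occurred once, at the start of Serpine2, and in 58.3% of all promoters. The motif GGAA, the core of ETS sites, occurred 3 times in Serpinb2, 2 times in Serpine2, 3 times in Timp3 and 7 times in Plaur, against 95.9% of promoters with at least 1 copy. The E-box, CANNTG, occurred once in Serpine2 and 2 times in Timp3, and 72.1% of promoters held it. The RUNX element TGTGGT, found in 16.9% of promoters, occurred in none of the 4 windows. The core of the hypoxia response element, ACGTG, found in 19.7%, did not occur in them either. A loose form of the CArG box, with any bases between its paired C and paired G, occurred 2 times in Serpine2, 4 times in Timp3 and once in Plaur, with 73.0% of promoters holding it. These are matches of letters in 1 window per gene, not measured binding.

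The inhibitors were held by few cells. Serpinb2 was detected in 5.71% of vehicle cells and 2.58% of DFO cells. Serpine2 was detected in 11.6% and 9.61%, and Timp3 in 14.3% and 10.4%. Plaur was spread more widely, in 27.3% of vehicle and 34.4% of DFO cells.

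Because deeper cells show more genes, each cell was also thinned to 10000 molecules at random, which left out 351 vehicle and 433 DFO cells with fewer. On thinned cells Serpinb2 was found in 3.05% (2.69 to 3.44) of vehicle and 1.30% (1.08 to 1.54) of DFO cells. Serpine2 was found in 5.67% (5.19 to 6.19) and 4.78% (4.36 to 5.23), Timp3 in 7.22% (6.67 to 7.79) and 4.69% (4.27 to 5.14), and Plaur in 11.0% (10.4 to 11.7) and 15.5% (14.8 to 16.3). For Serpinb2, Timp3 and Plaur the intervals of the libraries do not overlap, and for Serpine2 they overlap slightly. The share of all genes with such intervals apart was not counted. Since the genes were picked on the difference between these libraries, nothing is read from the overlap.

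The inhibitors and the receptor also differed in how unevenly cells held them. The 1% of vehicle cells with the most Serpinb2 (87 cells) carried 53.0% of all its molecules, and the same share of DFO cells (99 cells) carried 77.0%. For Serpine2 the top 1% carried 40.0% in vehicle and 41.9% in DFO, and for Timp3 41.3% and 50.1%. The top 1% carried 9.47% and 8.46% of Plaur molecules. These counts are not thinned. Serpinb2 was detected in 497 vehicle and 254 DFO cells, so the top 1% took in a larger part of its positive cells in DFO. Single cells reached 36 Serpinb2 molecules in vehicle and 38 in DFO, and 35 and 34 of Serpine2. The highest Timp3 cells held 81 in vehicle and 134 in DFO, whereas no cell held more than 6 Plaur molecules in vehicle or 7 in DFO.

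For Serpinb2 the difference in thinned cells appeared in the share of cells with a molecule. The log2 ratio of DFO to vehicle was -1.24 for the thinned share of cells and -0.0035 for the mean number of thinned molecules in the cells that had any. Positive cells held 1.55 Serpinb2 molecules on average in both libraries after thinning. For Plaur the same split gave 0.49 for the share and 0.028 for the level in positive cells, and for Serpine2 -0.25 and -0.052. Timp3 differed in both, at -0.62 for the share and -0.28 for the level in positive cells, with thinned means of 1.75 molecules per positive cell in vehicle and 1.44 in DFO. With 1 or 2 molecules in most positive cells, the level in such cells has little room to differ after thinning. The split therefore cannot tell fewer cells with a transcript from less of it per cell. Before thinning, positive cells held 3.76 and 3.43 Serpinb2 molecules on average in vehicle and DFO, 2.96 and 2.51 Serpine2, 3.69 and 2.54 Timp3, and 1.35 and 1.42 Plaur.

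To find which cells these were, all cells of both libraries were clustered without the 4 genes, so that the genes could not define the clusters, and 9 clusters resulted. Cluster 0 was led by Cavin2, Tesc, Pf4, Treml1 and Samd14 and is called megakaryocyte-like, from Pf4, Treml1 and Cavin2, which were in the list of markers. Cluster 3 was led by Sult1a1, Procr and Ly6a and is called HSC-like, and cluster 8 was led by Mpo, Ctsg and Elane, with the basophil gene Mcpt8 also among its leading genes, and is called neutrophil-monocyte-like. The other 6 stay unnamed: cluster 1 was led by mitosis genes, cluster 2 by histone genes, cluster 4 by genes that include Ung, cluster 5 by Tspan33, Siglecf and Klf1, cluster 6 by Slc7a8 and Il1rl1, and cluster 7 had a median of only 6965 molecules per cell. Of all vehicle cells 24.0% fell in the megakaryocyte-like cluster, and of all DFO cells 18.5%.

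Although they were not used in the clustering, Serpinb2, Serpine2 and Timp3 were among the 10 leading genes of the megakaryocyte-like cluster by fold over all other cells. That cluster held 96.2% of all Serpinb2 molecules in vehicle and 98.0% in DFO. It held 87.5% and 83.6% of Serpine2 molecules and 84.6% and 75.0% of Timp3 molecules. Of Plaur molecules it held 11.1% and 10.7%.

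**Figure D2:**
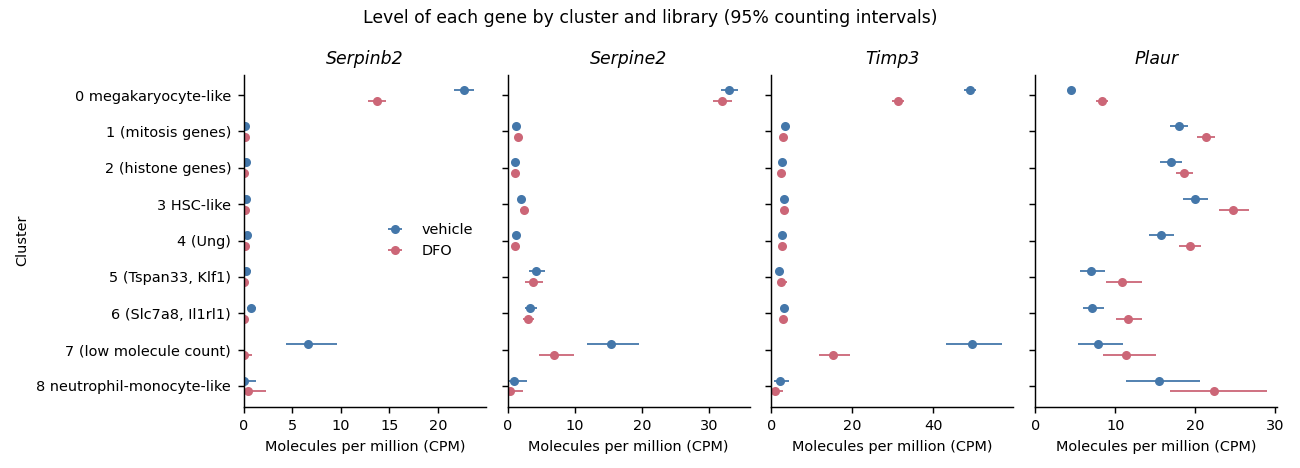
Level of each gene (horizontal axis, CPM) in each of the 9 clusters (vertical axis), in vehicle (blue) and DFO (red); bars are 95% counting intervals. The 3 inhibitors stand high in cluster 0, Timp3 also in cluster 7 in vehicle at 49.7 CPM, and Plaur is lowest in cluster 0 in both libraries and highest in cluster 3.

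Within the megakaryocyte-like cluster the inhibitors separated from each other. Serpinb2 measured 22.7 CPM (21.6 to 23.8) in vehicle and 13.7 CPM (12.8 to 14.7) in DFO, a log2 difference of -0.69 (-0.80 to -0.57). Timp3 measured 49.1 CPM (47.6 to 50.7) and 31.3 CPM (29.9 to 32.7), a difference of -0.63. Serpine2 measured 33.1 CPM (31.8 to 34.4) and 32.0 CPM (30.6 to 33.4), a difference of -0.05 whose interval (-0.13 to 0.04) includes 0.

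Plaur was lowest in this cluster, at 4.51 CPM (4.06 to 5.01) in vehicle and 8.32 CPM (7.62 to 9.07) in DFO. Its log2 difference there was 0.76 (0.56 to 0.95), the largest of any cluster. Pf4 itself measured 3876 CPM in vehicle and 2049 CPM in DFO within the cluster, a difference of -0.92. Of the 7333 genes at 10 CPM or more in the cluster, 0.545% were lower by 0.5 or more, as Serpinb2 and Timp3 were, and 2.78% were lower by 0.25 or more. Plaur stayed under 10 CPM there in both libraries and so was not among those genes, of which 0.218% were higher by 0.5 or more.

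Cell by cell, the thinned cells of this cluster held at least 1 Serpinb2 molecule in 11.0% (9.71 to 12.5) of vehicle and 6.57% (5.47 to 7.81) of DFO cells. Serpine2 was found in 17.4% (15.8 to 19.1) and 17.8% (16.0 to 19.6) of them, so both the level and the share of Serpine2 overlapped between libraries. Timp3 was found in 19.2% (17.5 to 21.0) and 13.5% (11.97 to 15.2). At least 3 Timp3 molecules were found in 4.19% and 2.11% of cells. Plaur was found in 3.76% (2.98 to 4.67) and 7.57% (6.39 to 8.89). No vehicle cell of the cluster held 2 thinned Plaur molecules (0 of 2076, which allows up to 0.145% by the limit of 3 cells), and 11 of 1797 DFO cells held 2 or more.

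**Figure D3:**
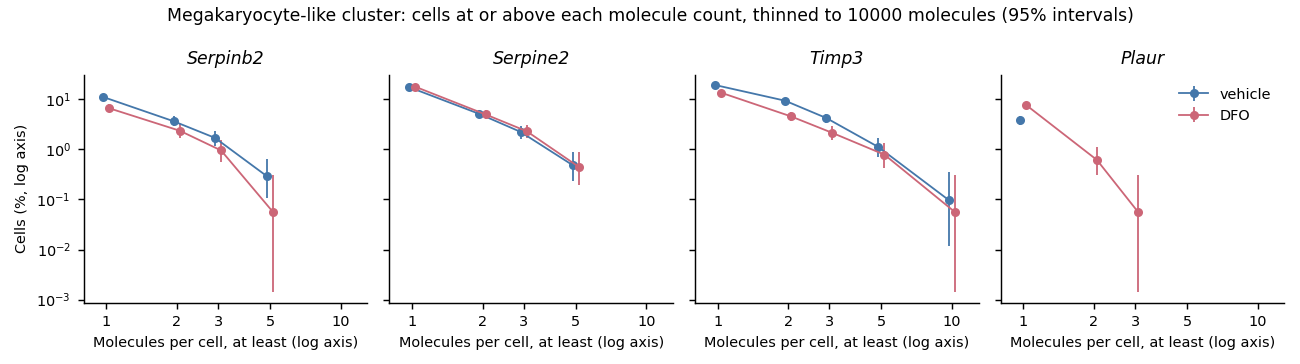
Percent of cells of the megakaryocyte-like cluster (log axis) with at least 1, 2, 3, 5 or 10 molecules of each gene (log axis) after thinning to 10000 molecules, in vehicle (blue, 2076 cells) and DFO (red, 1797 cells); bars are exact 95% intervals, and counts reached by no cell are not drawn. The Serpine2 curves lie on each other, the Serpinb2 and Timp3 curves are lower in DFO at 1 to 3 molecules, and the Plaur curve is higher in DFO.

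Plaur was lowest in the megakaryocyte-like cluster, where the inhibitors stood high. Clusters 5 and 6 were also low in Plaur, although the inhibitors were scarce there. The HSC-like cluster was highest in vehicle, with 20.0 CPM (18.4 to 21.7) of Plaur. Cluster 1 had 18.0 CPM, cluster 2 had 17.0, cluster 4 had 15.7 and the neutrophil-monocyte-like cluster had 15.5 CPM (11.3 to 20.6). Cluster 7 followed with 7.80 CPM, cluster 6 with 7.15, cluster 5 with 7.03 and the megakaryocyte-like cluster with 4.51. Neighbours in this order overlapped in their intervals except at 2 steps, from the neutrophil-monocyte-like cluster to cluster 7 and from cluster 5 to the megakaryocyte-like cluster.

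In DFO the HSC-like cluster again had the highest Plaur level, at 24.8 CPM (23.0 to 26.7), and the megakaryocyte-like cluster the lowest. Plaur was higher in DFO in all 9 clusters, with log2 differences from 0.13 in cluster 2 to 0.76. Of the genes at 10 CPM or more, 13.9% were higher in all 9 clusters. The counting intervals of the libraries stood apart in 6 of the 9 clusters for Plaur, and 6.53% of those genes were higher with intervals apart in 6 or more. The clusters where they overlapped were cluster 2, cluster 7 and the small neutrophil-monocyte-like cluster of 94 and 84 cells.

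Serpinb2 was lower in DFO in 8 of 9 clusters, Timp3 in 8 and Serpine2 in 6. The share of all genes lower in as many clusters was not counted, so nothing is read from these counts. Outside clusters 0 and 7 the intervals of the log2 differences of these genes all include 0. Intervals of the levels stood apart in 3 clusters for Serpinb2 (0, 6 and 7), 2 for Timp3 (0 and 7) and 1 for Serpine2 (cluster 7). For Serpinb2 in cluster 6 this rests on 12 molecules in vehicle and 0 in DFO. The interval of its log2 difference there (-3.71 to 2.17) includes 0. At a mean of 5 CPM or more, 8.15% of genes were lower with intervals apart in 3 or more clusters, and at 10 CPM or more 13.7% were so in 2 or more and 24.3% in 1 or more. Outside clusters 0 and 7 all 3 inhibitors were scarce. Serpinb2 was at most 0.704 CPM, in cluster 6 in vehicle, Serpine2 at most 4.25 CPM, in cluster 5 in vehicle, and Timp3 at most 3.25 CPM, in cluster 1 in vehicle.

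Molecules free in the cell suspension can enter droplets and give low counts in cells that do not make a transcript. The neutrophil-monocyte-like cluster served as the reference for this. Its 94 vehicle cells held 0 Serpinb2, 3 Serpine2 and 6 Timp3 molecules, and its 84 DFO cells held 1, 1 and 2. Its median cell had 31007 molecules in vehicle and 26278 in DFO, against 33303 and 31231 in the megakaryocyte-like cluster. Among thinned HSC-like vehicle cells 0.296% had Serpinb2, 1.70% Serpine2 and 3.25% Timp3. In the vehicle reference cluster Serpinb2 and Serpine2 were each found in 0 of 94 thinned cells, which allows a share of up to 3.19% by the limit of 3 cells, and Timp3 in 1.06% (0.0269 to 5.79), so no detection above that reference can be read for the HSC-like cells. Plaur was found in 17.2% (15.2 to 19.3) of thinned HSC-like vehicle cells and in 3.76% of megakaryocyte-like ones.

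Per 1000 Pf4 molecules, Timp3 counted 12.7 in the megakaryocyte-like cluster in vehicle and 13.2 to 14.2 in clusters 1 to 4. In clusters 5 and 6 the ratio was 1.45 and 2.79. Serpinb2 counted 5.85 per 1000 Pf4 molecules in the megakaryocyte-like cluster and 0.644 to 1.65 in clusters 1 to 4. In vehicle the ratio of Timp3 to Pf4 was thus alike in clusters 0 to 4 and lower in clusters 5 and 6, and that of Serpinb2 to Pf4 was lower in clusters 1 to 6 than in cluster 0. In DFO the Timp3 ratio was 15.3 (14.6 to 16.0) in the megakaryocyte-like cluster and 18.9 to 21.8 in clusters 1 to 4, with intervals above that of the megakaryocyte-like cluster in clusters 1, 2 and 4. It was 3.73 and 5.53 in clusters 5 and 6. Serpinb2 in DFO counted 6.69 in the megakaryocyte-like cluster, 0.424 to 0.879 in clusters 1 to 4 and 0 in clusters 5 and 6. The part of free molecules in the low counts was not tested.

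Cluster 7, whose cells had few molecules and a higher mitochondrial share (6.18% in vehicle and 7.51% in DFO, against 3.31% and 3.76% in the megakaryocyte-like cluster), held Timp3 at 49.7 CPM (43.1 to 57.0) in vehicle and 15.3 CPM (11.9 to 19.5) in DFO. Serpine2 there was 15.3 CPM (11.8 to 19.6) and 6.97 CPM (4.70 to 9.95). Serpinb2 was 6.58 CPM, from 27 molecules, in vehicle, and had 0 molecules in DFO, where 3 molecules would give 0.697 CPM. The levels of all 3 inhibitors were higher in vehicle with intervals apart. The share of all genes with intervals apart in this cluster alone was not counted. Of its 8053 genes at 10 CPM or more, 9.66% were lower by 0.25 or more and 1.95% by 0.5 or more. Per 1000 Pf4 molecules Timp3 counted 56.4 (48.9 to 64.7) in vehicle and 49.1 (38.0 to 62.5) in DFO in these cells. These intervals overlap, and both ratios were above those in the megakaryocyte-like cluster. Megakaryocyte markers summed to 1311 CPM in vehicle and 560.3 CPM in DFO in this cluster. Leaving it out gave a Timp3 difference over all cells of -0.85.

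Cells were also ranked by their summed megakaryocyte marker molecules after thinning and divided at common bounds into 5 ranges. Pf4 supplied most of the marker molecules, at 1447 of 1808 CPM in vehicle and 592.2 of 818.4 CPM in DFO over all cells. Tied marker counts made the ranges unequal, and from the lowest to the highest they held 29.7%, 13.5%, 20.7%, 16.5% and 19.5% of the thinned cells of both libraries. These are ranges of a score and not cell types, and since the markers themselves were lower in DFO, a range need not hold the same kind of cell in both libraries. The top range, with 14 or more marker molecules per cell, held 27.3% of vehicle and 12.6% of DFO cells, with medians of 32 and 24 marker molecules. The inhibitors were concentrated there, and Plaur went down from the lowest to the highest range.

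In the top range Serpinb2 measured 16.5 CPM (vehicle) and 14.8 CPM (DFO), a log2 difference of -0.15 with an interval from -0.41 to 0.11. Timp3 measured 35.7 and 29.9 CPM, a difference of -0.25 (-0.43 to -0.07). Serpine2 was higher in DFO, at 24.3 CPM (vehicle) and 35.4 CPM (DFO), a difference of 0.53 (0.34 to 0.71). In range 4 it also was higher, at 4.45 and 6.81 CPM, by 0.52 (0.07 to 0.97). Serpine2 did not reach 10 CPM in range 4, and of the 7445 genes that did so in the top range 0.215% were higher by 0.5 or more. In the lowest range the Serpine2 difference was -0.05 (-0.80 to 0.70), and in ranges 2 and 3 it was 0.31 and 0.32 with intervals that include 0. The sign was thus opposite to that over all cells, with intervals that exclude 0, in ranges 4 and 5, and within the top range marker content still differed between the libraries.

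Plaur measured 18.9 CPM in vehicle and 21.5 CPM in DFO in the lowest range and 4.20 and 7.77 CPM in the top range. It was higher in DFO in all 5 ranges, with differences from 0.17 to 0.75. The intervals of that difference excluded 0 in ranges 3 to 5. The share of all genes that did as much over the ranges was not counted. Since Plaur was picked for being higher in DFO, nothing is read from these counts. Pf4, which is most of the score, was lower in DFO within the top range as well, at 3743 and 2844 CPM.

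**Figure D4:**
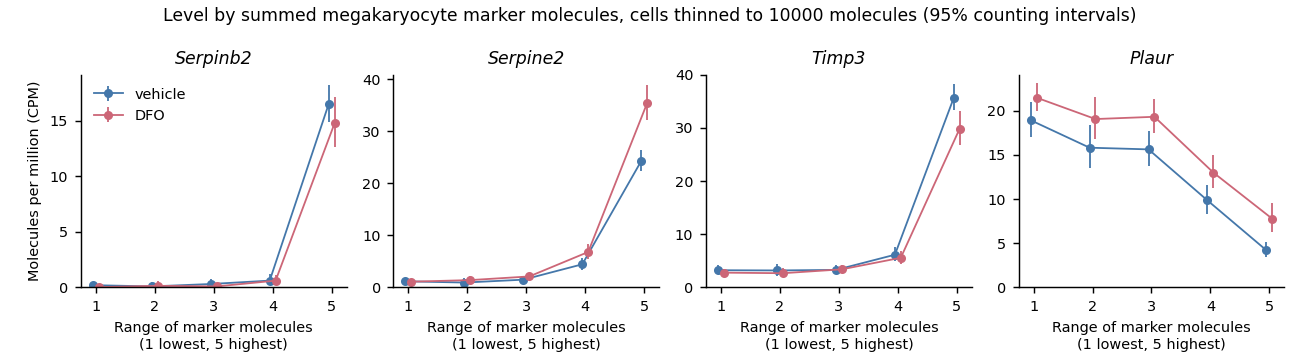
Level of each gene (vertical axis, CPM, thinned cells) in ranges of summed megakaryocyte marker molecules from lowest to highest (horizontal axis), in vehicle (blue) and DFO (red); bars are 95% counting intervals. Serpinb2, Serpine2 and Timp3 stand out in the top range, where Serpine2 is higher in DFO (35.4 against 24.3 CPM), and Plaur declines with marker content while staying higher in DFO.

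To compare the libraries at equal makeup, both were given the same shares of the 9 clusters. The difference over all cells then was -0.63 for Serpinb2, -0.55 for Timp3, -0.05 for Serpine2 and 0.32 for Plaur. With the same shares of the marker ranges it was -0.15, -0.20, 0.46 and 0.29. Plaur kept its direction in both. For Serpine2 the difference over all cells moved to near 0 in the first and changed sign in the second, whose ranges follow mainly Pf4. The 12 measured of 14 megakaryocyte markers summed to 1808 CPM in the vehicle library and 818.4 CPM in the DFO library over all cells, and to 4672 and 2620 CPM within the megakaryocyte-like cluster.

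**Figure D5:**
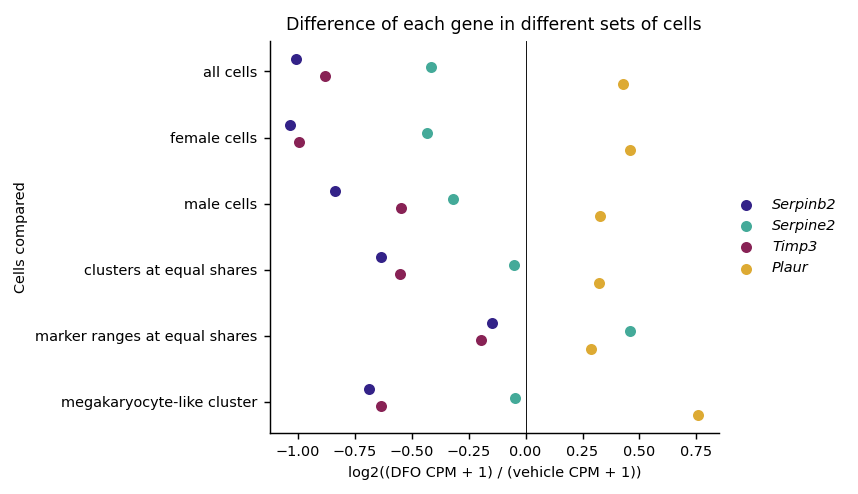
The log2 difference of each gene between DFO and vehicle (horizontal axis) for 6 sets or weightings of cells (vertical axis); each point is 1 gene in 1 set. Serpine2 is negative over all cells (-0.41), near 0 in the megakaryocyte-like cluster and at equal cluster shares, and positive at equal shares of marker ranges (0.46), whereas Plaur is positive in every set shown.

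In single cells the inhibitors occurred together. Of thinned vehicle cells, 83 had both Serpinb2 and Serpine2, where 14.5 would be met if the genes were independent, a ratio of 5.74 (4.57 to 7.11). In DFO the ratio was 10.5 (8.01 to 13.4), from 61 cells. Serpinb2 with Timp3 gave 4.89 in vehicle and 7.86 in DFO, and Serpine2 with Timp3 gave 3.83 and 4.31. All 3 inhibitors were concentrated in the same cluster, and within that cluster alone the ratios were 1.93 and 2.91, 1.89 and 2.82, and 1.70 and 1.97, still above 1 with their intervals. There 51.7% of DFO cells with Serpinb2 also had Serpine2, against 33.6% in vehicle. In the other direction, 19.1% of DFO cells with Serpine2 also had Serpinb2, against 21.3% in vehicle.

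Plaur was found with Serpinb2 in 4 vehicle cells, where 28.2 would be met under independence, a ratio of 0.142 (0.0387 to 0.364). In DFO it was 9 cells and a ratio of 0.475 (0.217 to 0.902). With Serpine2 the ratio was 0.306 in vehicle and 0.659 in DFO, and with Timp3 0.661 and 0.831, the last with an interval from 0.629 to 1.08. Within the megakaryocyte-like cluster the vehicle ratios were 0.232 with Serpinb2 and 0.221 with Serpine2, with upper bounds of 0.840 and 0.645, and those in DFO were 0.896 and 0.828 with intervals that include 1. Timp3 with Plaur gave 0.667 (0.320 to 1.23) in vehicle and 0.924 (0.538 to 1.48) in DFO there, so both intervals include 1.

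Plaur was also counted by the number of inhibitors in the cell. Of thinned vehicle cells with none of the 3 inhibitors, 11.8% had Plaur. With 1 inhibitor it was 7.35%, with 2 it was 0.543% (1 of 184 cells) and with all 3 it was 0 of 40 cells, which allows a share of up to 7.5% by the limit of 3 cells and of up to 8.81% by the exact interval. In DFO the shares were 15.9%, 11.4%, 11.2% (10 of 89 cells) and 8.33% (3 of 36 cells). For 2 inhibitors the intervals of the libraries (0.0138 to 2.99 and 5.52 to 19.7) did not overlap, and for 3 the DFO interval (1.75 to 22.5) overlapped that in vehicle. Cells with all 3 inhibitors held 97.7 Pf4 molecules on average in vehicle and 85.0 in DFO, and cells with none held 7.46 and 3.39. The groups also differed in makeup. Of vehicle cells with 0, 1, 2 and 3 inhibitors, 18.2%, 64.2%, 92.4% and 90% lay in the megakaryocyte-like cluster. Of the DFO cells it was 14.8%, 55.8%, 93.3% and 100%. In that cluster as a whole Plaur was found in 3.76% of vehicle and 7.57% of DFO cells. The part of cluster makeup in the Plaur shares was not tested.

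Cells with an inhibitor were also high in other megakaryocyte transcripts within their own cluster. In the vehicle cells of the megakaryocyte-like cluster, those with Serpinb2 held 75.0 Pf4 molecules on average and those without held 29.1. In DFO the values were 61.0 and 14.5. Before thinning, the vehicle cells with Serpinb2 had a median of 45641 molecules against 32426 for those without, and the DFO cells 40513.5 against 30879. For Serpine2 the medians were 40334.5 against 32387.5 in vehicle and 34313 against 30747.5 in DFO. The part of cell size or of droplets with more than 1 cell in this was not tested. Cells of the cluster with Plaur held 14.9 Pf4 molecules in vehicle, against 34.9 in those without it, and 15.04 against 17.7 in DFO.

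The genes whose counts followed each inhibitor most closely over the 8357 thinned vehicle cells were largely shared. Serpinb2 followed Tesc most closely, with Pearson's r of 0.38 in vehicle and 0.36 over the 9419 DFO cells, then Tmsb4x, Pf4, Rap1b and Mt1. Serpine2 followed Rap1b (0.32 and 0.27), Tmsb4x, Pf4 and Mt1, and Timp3 followed Rap1b (0.33 and 0.23), Tmsb4x, Mt1 and Pf4. Tmsb4x encodes an actin-binding peptide, Rap1b a small GTPase of platelets and Mt1 a metallothionein. Of the 20 closest genes in vehicle, 15 were also among the 20 closest in DFO for Serpinb2, 18 for Serpine2 and 15 for Timp3. Plaur had no close companion: its highest values, 0.15 in vehicle and 0.11 in DFO with S100a4, and then H2afy, Fkbp1a, Ly6a and Vim, are too weak to be read. Its lowest was with Pf4, at -0.15 and -0.10. These values describe cells of 1 library that share its depth and makeup.

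Cells of both sexes were present, and by Xist and 4 Y-linked genes they divided into 4751 female and 2767 male vehicle cells and 5251 female and 3266 male DFO cells. The sexes are different mice within each library, not replicate cultures. Serpinb2 was lower in DFO in both, by -1.03 in female and -0.84 in male cells. Serpine2 differed by -0.44 and -0.32, and Plaur by 0.46 and 0.33. Timp3 differed by -0.99 (-1.09 to -0.90) in female and -0.55 (-0.68 to -0.42) in male cells, with intervals apart. In female cells 0.656% and in male cells 0.509% of genes at 10 CPM or more were lower by 0.5 or more.

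Serpinb2 also differed between the sexes within each library. In vehicle it measured 8.93 CPM (8.45 to 9.44) in female and 4.46 CPM (4.02 to 4.94) in male cells, and in DFO 3.85 CPM (3.55 to 4.18) and 2.06 CPM (1.78 to 2.37). The share of cells in the megakaryocyte-like cluster was 23.9% of female and 24.9% of male vehicle cells. Within that cluster Serpinb2 measured 29.1 and 13.9 CPM in female and male vehicle cells and 17.8 and 9.05 CPM in DFO. The log2 difference of female over male was 0.86 in vehicle and 0.67 in DFO, and 0.113% of the 8886 genes at a mean of 5 CPM or more, 10 genes that include Xist, were higher in female cells by 0.5 or more in both libraries.

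Timp3 in the megakaryocyte-like cluster measured 56.8 CPM in female and 34.7 CPM in male vehicle cells, and 33.6 and 28.3 CPM in DFO. Serpine2 there measured 37.2 and 28.2 CPM in vehicle and 36.5 and 28.1 CPM in DFO, so it was higher in female cells in both libraries and nearly equal between libraries in each sex. Plaur there was 4.50 and 4.40 CPM in vehicle and 8.16 and 7.59 CPM in DFO, with overlapping intervals of the sexes. The sources used here do not say how many mice of each sex were pooled, and sex and single mice cannot be told apart.

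Other genes of plasminogen activation were mostly scarce. Of 17 listed genes 9 were measured. Urokinase itself, Plau, had 12 molecules in the vehicle and 11 in the DFO library. Besides the chosen genes, 3 reached 10 CPM, all with small negative differences: Anxa2, an annexin that binds plasminogen, at 58.0 CPM (vehicle) and 48.2 CPM (DFO) (-0.26), its partner S100a10 at 389.9 and 371.4 CPM (-0.07), and the plasminogen receptor Plgrkt at 124.3 and 112.9 CPM (-0.14). Anxa2 was past 0.25, so 1 of 3 was lower by that much and none was higher, where 2.31% of all genes at that level were lower and 1.24% higher. Their median was -0.14, beside 0.02 over all 7476 genes.

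Among the 16 serpins measured, 4 besides Serpine2 reached 10 CPM, and none of them differed by 0.25. These were Serpina3g at 510.3 and 439.8 CPM (-0.21), Serpinb1a at 175.8 and 152.5 CPM (-0.20), Serpinb6b at 10.3 and 8.65 CPM (-0.23) and Serpinb6a at 48.1 and 46.5 CPM (-0.05). Serpina3g, Serpinb1a and the Serpinb6 pair have near copies in the mouse genome, so how reads were divided between copies is uncertain. Serpina3g, an intracellular serpin of stem and T cells, was also higher in the megakaryocyte-like cluster than elsewhere, at 985.3 against 302.9 CPM in vehicle and 918.4 against 305.6 CPM in DFO.

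Of 37 metalloproteinases and their inhibitors measured, 4 besides Timp3 reached 10 CPM, and all 4 lay within 0.25 of 0. The sheddases Adam10 (-0.12), Adam15 (-0.05) and Adam17 (-0.01), and Adamts10 (-0.02), had a median of -0.04. Timp2, a soluble relative of Timp3, was at 2.36 CPM (vehicle) and 2.68 CPM (DFO), and was lower in the megakaryocyte-like cluster (0.782 and 1.24 CPM) than in the other cells (3.04 and 3.09 CPM), unlike Timp3.

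Of 16 listed partners of the urokinase receptor, 11 were measured and 5 reached 10 CPM. The integrin chain Itgb3, which platelets use to bind fibrinogen, was at 75.6 CPM (vehicle) and 55.4 CPM (DFO) (-0.44), and Itgb2, an integrin chain of white cells, at 15.3 and 11.2 CPM (-0.42). Both were lower by 0.25 or more, as were 2.31% of all genes at that level. Itgb1 (-0.07), Itga6 (-0.07) and Itga5 (0.03) were not, and the list's median was -0.07. In the Ly6 and urokinase receptor family, to which Plaur belongs, Ly6a was the other gene past 0.25, at 83.9 CPM (vehicle) and 111.2 CPM (DFO) (0.40), where 1.24% of all genes were higher by as much, and Ly6e differed by -0.07. Ly6a shared with Plaur a low level in the megakaryocyte-like cluster, 10.1 and 16.3 CPM, against 116.1 and 137.8 CPM in the other cells.

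Thrombin, which Serpine2 inhibits, acts through receptors of the F2r family. F2r was at 44.8 and 42.0 CPM (-0.09) and F2rl3 at 21.5 and 20.6 CPM (-0.06), neither past 0.25. Platelet alpha granule genes, of which 4 reached 10 CPM, were lower by 0.25 or more in 3 cases: Pf4 (-1.29), Mmrn1, a granule protein that binds factor V, at 20.7 and 15.4 CPM (-0.40), and Tgfb1 at 291.7 and 240.2 CPM (-0.28). Of all genes at that level 2.31% were lower by as much. Srgn, the granule proteoglycan, differed by -0.15, and the median was -0.34. Of 7 genes of the ERK and AP-1 output list at that level, none differed by 0.25, and their median was -0.06. The highest were Dusp6 (0.08) and Etv5 (0.08), and the lowest were Egr1 (-0.17) and Junb (-0.16). At a mean of 5 CPM or more, 1 of 13 genes of this list was higher by 0.25 or more and 0 were lower. It was the AP-1 gene Fosl1, at 5.89 CPM (vehicle) and 7.26 CPM (DFO) (0.26). Of all genes at that minimum 1.4% were higher by as much.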

How the data were processed

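Single-cell RNA was measured in 1 vehicle and 1 DFO library. The authors deposited, per library, a table of natural log values per gene and cell, with each cell scaled to a common total, as found from the values themselves. All 44114455 vehicle and 49560434 DFO values above 0 came out as whole molecule counts within 0.05 molecule. Per the submitters' processing notes, FastQC 0.11.9, Trim Galore 0.6.5, Cell Ranger 3.0.2 and mm10 were used, with no role stated. No cell was filtered here.

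Molecules were summed per library or cluster and scaled to CPM. Differences are log2 with 1 CPM added. Poisson and Clopper-Pearson intervals are exact, the limit for a count of 0 is 3 counts of the total, and intervals of log2 differences are normal approximations on counts. With 1 library per group there was no test. Cells were clustered (scanpy 1.11.5, leidenalg 0.10.2, 2000 variable genes, 30 components, 15 neighbours, resolution 0.5) without the 4 genes and without S, G2/M, mitochondrial, ribosomal protein and sex-linked genes. No doublet caller was run. The alternative called without likely doublets leaves out cells with molecules of both sexes (211 vehicle and 335 DFO cells) and the top 8% by molecules. Cells with 5 or more Xist and no Y-linked molecules were called female, and those with at most 1 Xist and 2 or more Y-linked molecules male. Recovery, thinning and differences were tested on simulated data.

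The genes, lists and markers were chosen with earlier results of these data known. Genes named are the 4, Pf4, the 5 closest by correlation among genes in 5% or more of vehicle cells, the 2 highest and 2 lowest of each list at 10 CPM or more, and every serpin, Timp and plasminogen activation gene at that level. Syn3, Serpinb10, Timp2, Plau, Fosl1, sort markers and Pecam1 were named outside this rule, after their values were seen. A few items that the rule would name are not reported here.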

Additional observations from a re-analysis of the deposited data

How the results depend on the processing

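No paired analysis was possible because each group has 1 library. Plaur was higher in DFO and Serpinb2 and Timp3 were lower under each of the 12 alternatives over all cells. The log2 difference of Serpinb2 over all cells (-1.01) was -1.20 with 0.1 CPM added in place of 1, -0.79 without likely doublets, -0.63 at equal cluster shares, -0.15 at equal shares of marker ranges, -1.37 without the 1% of cells with most of its molecules and -0.84 in male cells. That of Timp3 (-0.88) was -0.74 as a mean over cells, -0.71 without likely doublets, -0.55 at equal cluster shares, -0.20 at equal ranges, -1.04 without its top 1% of cells, -0.99 in female and -0.55 in male cells. That of Serpine2 (-0.41) was -0.30 as a mean over cells, -0.051 without likely doublets, -0.049 at equal cluster shares, -0.26 in thinned cells and -0.32 in male cells, and it reversed to 0.46 at equal ranges. That of Plaur (0.43) was 0.36 without likely doublets, 0.32 at equal cluster shares, 0.29 at equal ranges and 0.33 in male cells. In the megakaryocyte-like cluster Serpinb2 (-0.69) was -0.39 at resolution 1, -0.53 with another seed, -0.85 when clustered without genes that differ between libraries and -0.86 without its top 1% of cells; Timp3 (-0.63) was -0.39, -0.49, -0.78 and -0.86. Serpine2 there (-0.05) was 0.20, 0.091 and -0.18 under the first 3 of these, so its sign within the cluster depends on the clustering. Plaur there lay between 0.67 and 0.78. The cause of these moves was not tested. The megakaryocyte-like share was 17.2% to 36.8% of vehicle and 10.4% to 27.4% of DFO cells under other clusterings. Scaling by the median ratio moved all genes by 0.02.

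Shares of cells with each gene depend on the depth: without thinning or at 5000 molecules they were 27.3% and 6.07% for Plaur in vehicle, with the same order of the libraries for each of the 4 genes. Of other alpha granule genes, 3 of 4 were lower by 0.25 or more at 10 CPM, 7 of 8 at a mean of 5 CPM and 9 of 13 with no minimum, and of other thrombin genes 0 of 2, 1 of 4 and 2 of 6, the first of them F2rl2 (-0.57). At the same minimums it was 0 of 4, 0 of 7 and 2 of 14 other serpins. For other metalloproteinases and their inhibitors it was 0 of 4, 0 of 4 and 1 of 36. Of all genes 2.31%, 2.58% and 2.92% were lower by as much. The top-cell, sex and low-count cluster alternatives were chosen after the data were seen.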
